A study of Mus musculus with 4 samples.

Results

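Adipose tissue exosomes carry small amounts of miRNAs best known from epithelia, and 5 of these were followed here across depot and diet: mmu-miR-203-3p, mmu-miR-205-5p, mmu-miR-375-3p, mmu-miR-31-5p and mmu-miR-31-3p. They were chosen by name, with each listed sequence taken once, and each name matched 1 sequence, so that the set holds 5 of the 697 sequences with a mouse name. The libraries came from exosomes that explants of visceral white adipose tissue (vWAT-Exos) or brown adipose tissue (BAT-Exos) released into culture medium. All mice were wild-type C57BL/6, and the labels give an age of 6 weeks and a high-fat diet (HFD) or a low-fat diet (LFD) over 4 months. There were 4 libraries, 1 each for HFD vWAT-Exos, LFD vWAT-Exos, HFD BAT-Exos and LFD BAT-Exos. The explants were not sorted, so every cell type in a piece of tissue could release exosomes, and how many mice stand behind a library is not stated in the labels or methods. With 1 library per combination, the ratios below have no replicate check, and their 95% intervals cover counting error only.

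A miRNA is cut from the 5p or the 3p side of a hairpin transcript, and its seed, bases 2 to 8, pairs with the messenger RNAs that it represses. In skin, miR-203 is known to hold back p63 as keratinocytes leave the cell cycle and differentiate. miR-205 is known to repress the transcription factors ZEB1 and ZEB2, which drive the loss of epithelial character, a task it shares with the miR-200 family. miR-375 is abundant in pancreatic islets, where it restrains insulin secretion, and it also occurs in glandular epithelia. miR-31 is known from keratinocytes and mammary epithelium, and miR-31-3p is the opposite strand of the hairpin that gives miR-31-5p. These settings are background from other tissues, and which cells released the 5 miRNAs here was not tested.

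The deposited sequences are shown to identify the molecules that were counted, 5′ to 3′, with the seed in capitals.
miR-203-3p: gTGAAATGtttaggaccact
miR-205-5p: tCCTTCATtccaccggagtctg
miR-375-3p: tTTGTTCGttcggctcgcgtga
miR-31-5p: aGGCAAGAtgctggcatagctgt
miR-31-3p: tGCTATGCcaacatattgccatc
No 2 of the 5 share a seed, so by this measure they form no seed family. The sequence of miR-203-3p ended 2 bases before the RefSeq mature form, and that of miR-31-5p ran 1 base past it. Their 5′ ends, and with them the seeds, were those of RefSeq, and miR-205-5p and miR-31-3p had the RefSeq form. The mature form of miR-375-3p was not in the RefSeq table used, and its sequence was placed by matching it to the RefSeq hairpin Mir375.

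The hairpins lie at 4 places in the mouse genome, given here on GRCm38.p6. Mir203 is at chr12:112130880-112130955 on the plus strand, and no other gene in the GENCODE annotation used overlaps it. That annotation holds no gene for miR-203b-3p, whose sequence lies on the opposite strand of Mir203, as given later. Mir205 is at chr1:193507463-193507530 on the minus strand, in an exon of the long non-coding RNA gene 4631405K08Rik (chr1:193507238-193510174). Mir375 is at chr1:74900658-74900721 on the minus strand, with no other gene of the annotation over it. Mir31 is at chr4:88910557-88910662 on the minus strand and overlaps an exon of the long non-coding RNA gene AL805899.1 (chr4:88909855-88938521). The hairpins with both strands in the table are printed for the strand comparison given later, in RNA letters, with the listed strands in capitals.
Mir203: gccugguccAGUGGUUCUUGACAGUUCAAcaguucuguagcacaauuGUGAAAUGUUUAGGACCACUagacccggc
Mir205: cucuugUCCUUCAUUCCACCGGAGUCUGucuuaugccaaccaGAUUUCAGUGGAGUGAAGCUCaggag
Mir31: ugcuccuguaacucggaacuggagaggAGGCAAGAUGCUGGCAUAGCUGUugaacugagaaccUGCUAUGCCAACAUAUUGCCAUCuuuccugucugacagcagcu

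Each entry has a norm value, a normalized count, and the norm values of a library summed to between 2585590 (LFD vWAT-Exos) and 5832550 (HFD BAT-Exos). In reads this is approximately 1198338, 1898620, 8265828 and 6846016 for HFD vWAT-Exos, LFD vWAT-Exos, HFD BAT-Exos and LFD BAT-Exos, so that 1 read was worth 2.37, 1.36, 0.706 and 0.825 in norm value in the same order. Low values are thus least certain in vWAT-Exos. Values under 5 reads made up 1.14% to 1.86% of the listed values of a library, and a miRNA listed at 0 may therefore have had a few reads. The tissue labels were checked on miRNAs known from each depot. miR-378a-3p, an abundant miRNA of brown fat, was 18.4-fold lower in vWAT-Exos than in BAT-Exos on HFD. miR-196a-5p, which lies in the Hox gene clusters and is known from white fat, was at 1436 and 1392 in vWAT-Exos on HFD and LFD, against 4.94 and 4.13 in BAT-Exos. Its relative miR-196b-5p did likewise (2005 and 1947 against 6.35 and 14.9), while miR-10b-5p, the third of that list and abundant in both depots, did not set them apart, at 107379 and 87706 against 131716 and 109329, so that the list's sum was 1.19-fold and 1.20-fold lower in vWAT-Exos.

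miR-203-3p made up most of the set. Its norm value was 2135 in HFD vWAT-Exos, 1788 in LFD vWAT-Exos, 5261 in HFD BAT-Exos and 3266 in LFD BAT-Exos, from approximately 901, 1313, 7456 and 3957 reads. By norm value it was high in both BAT-Exos libraries and lower in both vWAT-Exos libraries, and the counting intervals of the 4 values did not overlap. As a share of its library it was 0.0752%, 0.0692%, 0.0902% and 0.0578% in the same order, lowest in LFD BAT-Exos. The split by depot thus depends on the scale. By rank it was 95th of 426 listed mouse miRNAs in HFD vWAT-Exos, 107th of 483 in LFD vWAT-Exos, 70th of 525 in HFD BAT-Exos and 84th of 527 in LFD BAT-Exos.

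miR-205-5p stood out in a single library. Its norm value was 322 in HFD vWAT-Exos, 252 in LFD vWAT-Exos, 390 in HFD BAT-Exos and 2631 in LFD BAT-Exos (approximately 136, 185, 552 and 3188 reads). The LFD BAT-Exos library lay far above the other 3. Among those 3, the interval of HFD vWAT-Exos (270 to 381) overlapped that of LFD vWAT-Exos (217 to 291) and that of HFD BAT-Exos (358 to 423).

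miR-375-3p was listed above 0 in vWAT-Exos alone. Its norm value was 325 in HFD vWAT-Exos (137 reads) and 8.17 in LFD vWAT-Exos (6 reads), and it was listed at 0 in HFD BAT-Exos and LFD BAT-Exos. A count of 0 allows a norm value of up to 2.6 in HFD BAT-Exos and 3.0 in LFD BAT-Exos (exact 95% upper limits), if the zeros are true counts. The value of LFD vWAT-Exos lay only 1 read above the 5 reads under which values were seldom listed.

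miR-31-5p was low throughout, at norm values of 85.3 in HFD vWAT-Exos, 118 in LFD vWAT-Exos, 43.0 in HFD BAT-Exos and 140 in LFD BAT-Exos (36, 87, 61 and 170 reads). Each HFD library was below the LFD library of its depot. The intervals overlapped in vWAT-Exos (59.8 to 118 on HFD and 94.9 to 146 on LFD) and lay apart in BAT-Exos (32.9 to 55.3 on HFD and 120 to 163 on LFD). Its opposite strand, miR-31-3p, was at 9.53 in LFD vWAT-Exos (7 reads) and 15.7 in LFD BAT-Exos (19 reads), and it was listed at 0 in both HFD libraries.

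**Figure D1:**
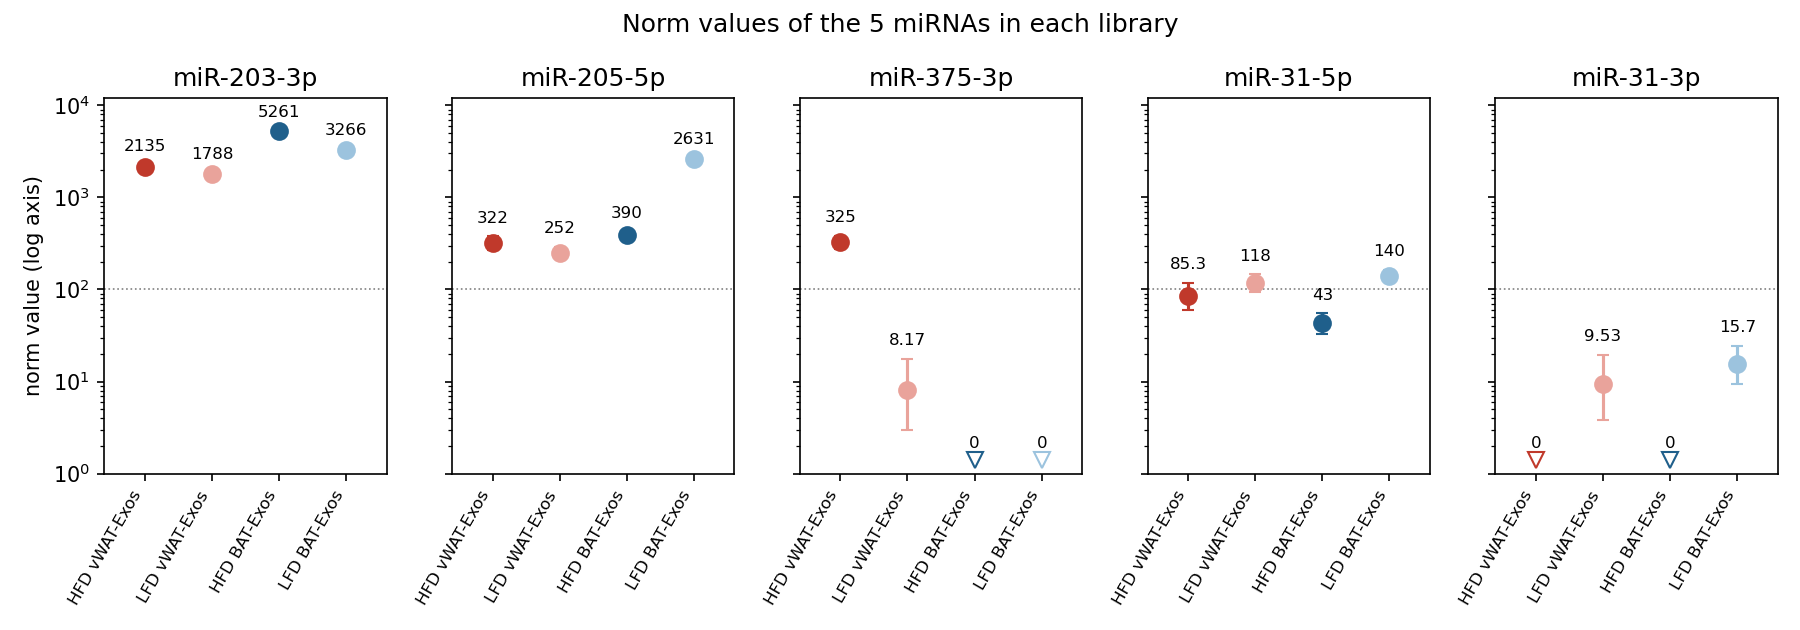
Norm value (log axis) of each of the 5 miRNAs in the 4 libraries, 1 point per library, with bars for the 95% counting interval, open triangles for values listed at 0 and a dotted line at 100. miR-203-3p lies between 1788 and 5261 throughout, miR-205-5p reaches 2631 in LFD BAT-Exos only, and miR-375-3p has 325 in HFD vWAT-Exos against 8.17 in LFD vWAT-Exos.

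Summed, the 5 miRNAs came to 2867, 2176, 5694 and 6053 in HFD vWAT-Exos, LFD vWAT-Exos, HFD BAT-Exos and LFD BAT-Exos, which is 0.101%, 0.0842%, 0.0976% and 0.107% of each library. The sum was 1.06-fold lower in HFD BAT-Exos than in LFD BAT-Exos, and its make-up differed more. miR-203-3p took 74.5% of it in HFD vWAT-Exos and 82.2% in LFD vWAT-Exos, and 92.4% in HFD BAT-Exos against 54.0% in LFD BAT-Exos. There were 13.5 norm units of miR-203-3p for each of miR-205-5p in HFD BAT-Exos and 1.24 in LFD BAT-Exos, against 6.63 in HFD vWAT-Exos and 7.10 in LFD vWAT-Exos.

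To compare the diets in brown fat, HFD BAT-Exos were set against LFD BAT-Exos. Of the 5 miRNAs, miR-205-5p and miR-31-5p were lower on HFD by at least 2-fold, miR-203-3p was somewhat higher, and miR-375-3p and miR-31-3p did not reach a norm value of 100 in either library, the floor used for every count of this kind. miR-205-5p, the ZEB repressor, was 6.76-fold lower on HFD (95% counting interval 6.17 to 7.41), the 6th lowest ratio of 283 mouse miRNAs that reached the floor. miR-31-5p was 3.26-fold lower (2.42 to 4.44) and 19th from the bottom. It reached the floor through LFD BAT-Exos alone, the library where it was high (140 against 43.0 on HFD). Its call is lost where both libraries must reach 100. miR-203-3p was 1.61-fold higher (1.55 to 1.67), short of 2-fold. So 2 of the 3 that reached the floor were lower and 0 were higher, where 12.4% of all 283 miRNAs were lower by this rule, 7.42% were higher and 19.8% differed in either direction. With 1 library on each diet, fewer exosomes from a cell type and less of a miRNA per exosome cannot be told apart.

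miRNAs known from other cell types also differed between the BAT-Exos libraries. The miR-200 family, which marks epithelium and represses ZEB1 and ZEB2 as miR-205 does, summed to 327 on HFD against 2650 on LFD. In it 4 of 4 members at the floor were lower, with miR-200b-3p at 153 against 1193 (7.79-fold lower) and miR-200a-3p at 83.3 against 869 (10.4-fold lower). Of those 4, miR-200a-3p, miR-200c-3p (41.6 against 294) and miR-429-3p (44.5 against 226) reached the floor through LFD BAT-Exos alone. The miR-183 cluster (miR-183-5p, miR-96-5p and miR-182-5p), which is known from sensory epithelia, went the way of miR-203-3p instead, with a sum of 9309 against 5727 and 0 of 3 members at 2-fold. Of the 6 miRNAs of striated muscle, 6 were at least 2-fold higher on HFD, with a sum of 22933 against 4193 and miR-133a-3p at 13087 against 1829. Of the 4 of leukocytes, 2 were lower, miR-142a-3p (66.3 against 428) and miR-142a-5p (650 against 1469), and 0 were higher, with a sum of 2489 against 3987. Of the 3 of red cells, 1 was lower, miR-144-3p (142 against 808), while miR-451a (13822 against 10739) and miR-486b-5p (12760 against 10106) were higher by less than 2-fold and the sum was 26724 against 21653. Neither of the endothelial pair miR-126a-3p and miR-126a-5p nor any of the 4 brown adipocyte miRNAs reached 2-fold. What part any of these cell types had in the ratios of miR-205-5p and miR-31-5p was not tested.

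In vWAT-Exos the diet ratios of the set were smaller, with the exception of miR-375-3p. It was 39.7-fold higher on HFD (17.8 to 110), the highest ratio of 283 miRNAs on the scale of norm value + 1. miR-203-3p was 1.19-fold higher (1.1 to 1.3) and miR-205-5p 1.28-fold higher (1.0 to 1.6). miR-31-5p was 1.39-fold lower on HFD, with an interval (0.932 to 2.11) that included no difference. miR-31-3p did not reach the floor. Of the 4 that did, 1 was at least 2-fold higher and 0 were lower, against 5.65% higher, 4.59% lower and 10.2% in either direction among all 283. miR-375-3p reached the floor through HFD vWAT-Exos alone, its call rests on the 6 reads of LFD vWAT-Exos, and the call is lost where both libraries must reach 100.

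Other miRNAs known from the tissues of miR-375 were read beside it. In vWAT-Exos, 4 of 5 members of the miR-200 family were at least 2-fold higher on HFD (summed norm value 4638 against 1736), and 3 of 3 of the miR-183 cluster (912 against 330). Of 6 measured islet and neuroendocrine miRNAs, only miR-7a-5p reached the floor, at 1473 on HFD against 735 on LFD. Of the others, miR-7b-5p was listed at 0 on both diets, miR-124-3p was at 0 against 2.72, miR-184-3p at 21.3 against 10.9, miR-9-5p at 11.8 against 18.2 and miR-129-5p at 68.7 against 81.0. Of 6 measured miRNAs of epididymis and testis, only miR-34c-5p reached the floor, at 1931 on HFD against 2541 on LFD, so that this list was lower in sum (2021 against 2747) in the library where miR-375-3p was high. The part of these tissues in the ratio of miR-375-3p was not tested.

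**Figure D2:**
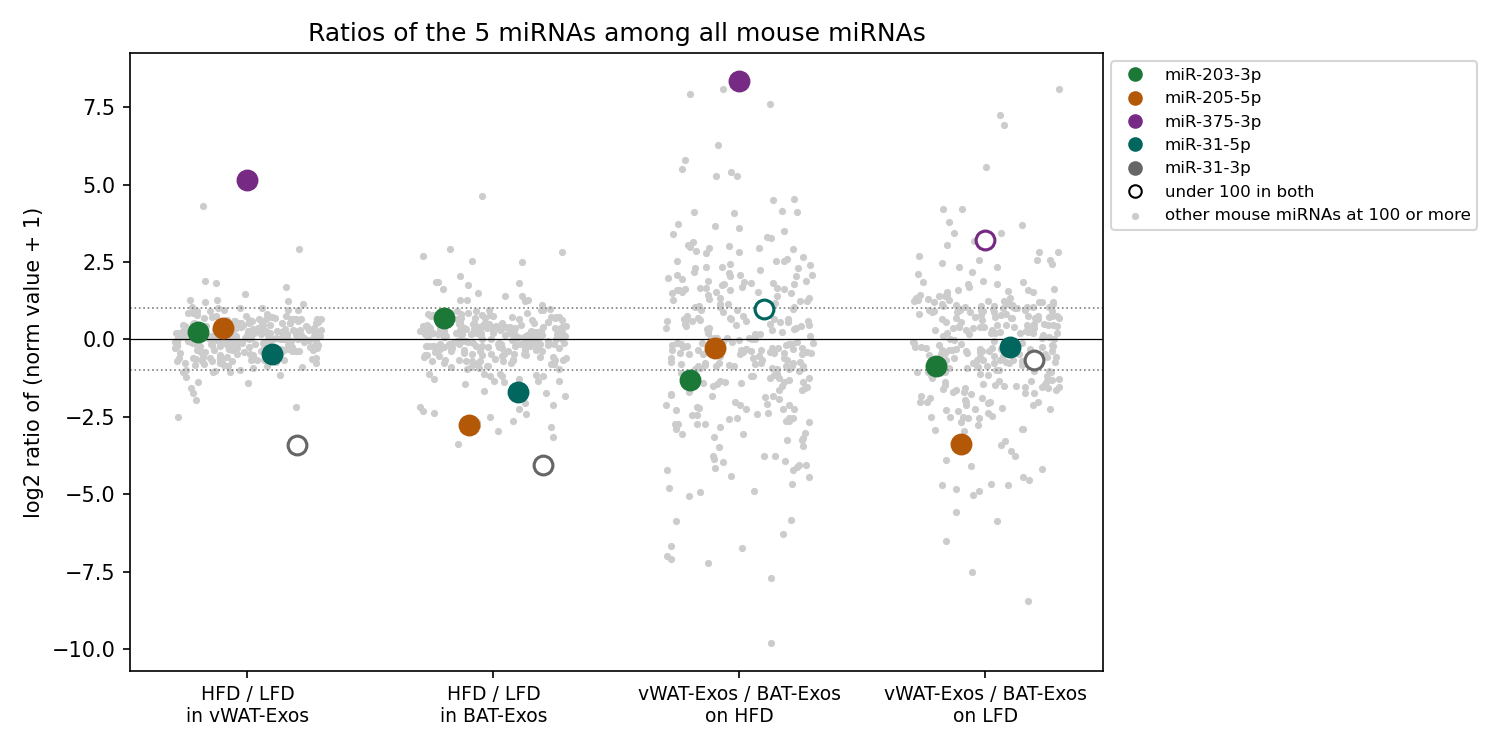
Log2 ratio of norm value + 1 in the 4 comparisons, with the 5 miRNAs in colour (open circles where neither library reached 100) and all other mouse miRNAs at 100 or more in grey, and dotted lines at 2-fold. miR-375-3p has the highest ratio of HFD against LFD in vWAT-Exos and of vWAT-Exos against BAT-Exos on HFD, and miR-205-5p is at -2.75 on HFD against LFD in BAT-Exos.

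The diet response of vWAT-Exos was then set against that of BAT-Exos, as the difference of the 2 log2 ratios of norm value + 1. For miR-205-5p the ratio was 0.35 in vWAT-Exos and -2.75 in BAT-Exos, a difference of 3.11 on the log2 scale (95% counting interval ± 0.34) and the 9th highest of 320 miRNAs at the floor in any library. miR-31-5p had -0.47 and -1.68, a difference of 1.21 ± 0.70 and the 42nd highest. miR-203-3p had 0.26 and 0.69, a difference of -0.43 ± 0.13 and the 207th highest. For miR-375-3p the difference of 5.15, at place 3, has an interval of ± 5.77 that includes 0 and comes from vWAT-Exos alone, since it was listed at 0 on both diets in BAT-Exos. The 5 members of the miR-200 family took places 1, 2, 4, 6 and 7 of this order, from 3.25 for miR-429-3p to 8.02 for miR-141-3p. Of the set, only miR-205-5p had a ratio above 0 in vWAT-Exos and below 0 in BAT-Exos, the arrangement that all 5 members of the miR-200 family had, along with 23.8% of the 320 miRNAs (76). With 1 library per combination these differences have no test.

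**Figure D3:**
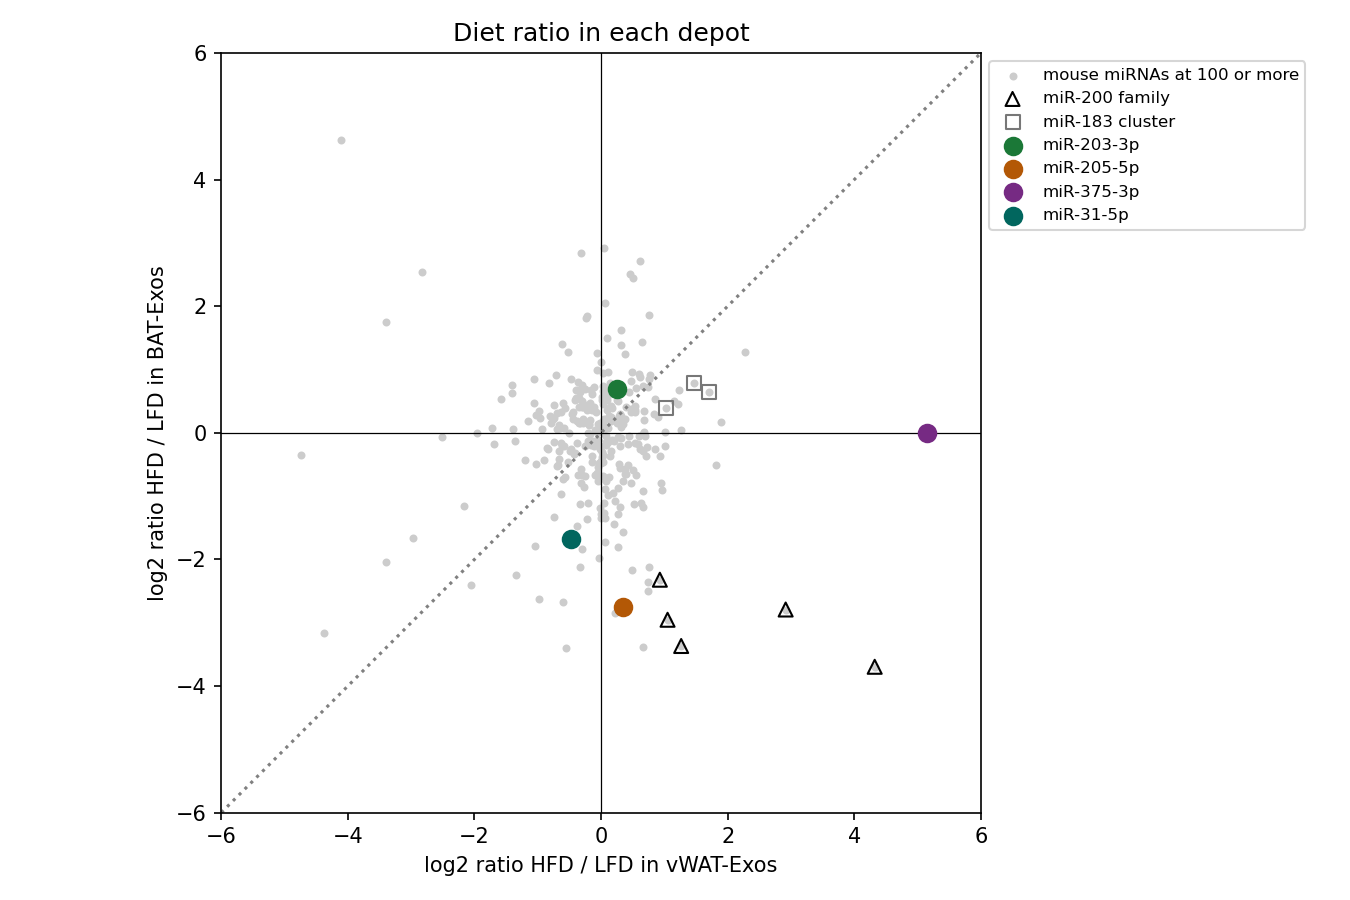
Log2 ratio of HFD against LFD (norm value + 1) in vWAT-Exos on the x axis and in BAT-Exos on the y axis, 1 point per mouse miRNA that reached 100 in any library, with a dotted line where both ratios are equal. miR-205-5p (0.35 and -2.75) lies below 0 in BAT-Exos as the miR-200 family does, while miR-203-3p (0.26 and 0.69) lies near the bulk of miRNAs.

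Each library enters 1 diet and 1 depot comparison, so a value that is high in 1 library moves both. Between the depots on HFD, miR-375-3p was higher in vWAT-Exos (325, listed at 0 in BAT-Exos), first of 307 miRNAs at the floor on the scale of norm value + 1. miR-203-3p was 2.46-fold lower in vWAT-Exos than in BAT-Exos (2.30 to 2.64), at 2135 against 5261. miR-205-5p was 1.21-fold lower (1.0 to 1.5), at 322 against 390. miR-31-5p was 1.98-fold higher (1.28 to 3.04), at 85.3 against 43.0 and thus under the floor in both, and miR-31-3p was listed at 0 in both. Of the 3 that reached the floor, 1 was higher and 1 lower. The higher 1, miR-375-3p, reached the floor through HFD vWAT-Exos alone, the library where it was high. Where both libraries must reach 100, 0 were higher and 1 was lower. Calls of this size were common between depots, with 30.6% of all 307 miRNAs higher, 32.2% lower and 62.9% in either direction.

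On LFD the depot difference of the set lay in miR-205-5p, which was 10.4-fold lower in vWAT-Exos than in BAT-Exos (9.0 to 12.2), at 252 against 2631 and 20th from the bottom of 303 miRNAs. miR-203-3p was 1.83-fold lower (1.72 to 1.95), at 1788 against 3266, and miR-31-5p 1.18-fold lower (0.909 to 1.55), at 118 against 140. miR-31-3p (9.53 against 15.7) and miR-375-3p (8.17 in vWAT-Exos, listed at 0 in BAT-Exos) stayed under the floor. Of the 3 that reached it, 0 were higher and 1 was lower, while 23.4% of all 303 miRNAs were higher, 29.4% were lower and 52.8% differed in either direction. In the miR-200 family 2 of 4 were lower in vWAT-Exos on LFD, while 5 of 5 were higher in vWAT-Exos on HFD (4638 against 327 in sum). The miR-183 cluster went the other way on HFD, with 3 of 3 lower in vWAT-Exos (912 against 9309 in sum). On LFD 3 of 3 of that cluster were lower in vWAT-Exos too (330 against 5727).

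Part of the depot comparisons depended on how the norm values were scaled. The norm values of the vWAT-Exos libraries sum to less than those of BAT-Exos, and with all libraries brought to the same sum the median log2 ratio of vWAT-Exos to BAT-Exos over all miRNAs moved up by 1.01 on HFD and by 1.09 on LFD. In place of 94 higher and 99 lower on HFD there were then 148 and 61, and in place of 71 and 89 on LFD, 166 and 40. miR-203-3p was then 1.23-fold lower in vWAT-Exos on HFD and 1.17-fold higher on LFD, so that its direction on LFD turned and its call on HFD was lost. The direction of miR-205-5p on HFD also turned (1.66-fold higher in vWAT-Exos), and miR-31-5p was 3.98-fold higher in vWAT-Exos on HFD, past the floor and 2-fold, while on LFD it turned to 1.80-fold higher. miR-31-3p on LFD, from 7 and 19 reads, turned to 1.30-fold higher. The lower value of miR-205-5p in LFD vWAT-Exos (4.90-fold) and the higher value of miR-375-3p in HFD vWAT-Exos kept their calls. The diet ratios moved less, with a shift of the median of -0.13 in vWAT-Exos. The split of all calls there still changed from 16 higher and 13 lower to 13 and 27, and to 18 and 9 with median-of-ratios scaling. With the same sum the log2 diet ratio in vWAT-Exos was 0.1216 ± 0.1223 for miR-203-3p and 0.22 ± 0.32 for miR-205-5p. Both counting intervals then included 0. With median-of-ratios scaling the 2 ratios were 0.31 and 0.40.

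A test across all 4 libraries was possible only by adding depot and diet in 1 model (limma on log2 of norm value + 1). The model leaves 1 residual degree of freedom and takes as error the departure from additivity, not the spread between replicates. The eBayes step draws that error toward a trend over all miRNAs tested, so it is not each miRNA's own departure alone. In this model the depot effect (vWAT-Exos against BAT-Exos) had an adjusted p under 0.05 for 3 of the 5 miRNAs. The higher 1, miR-375-3p, is set aside for the reason given below. The other 2, miR-205-5p and miR-203-3p, were lower. Of 512 miRNAs tested, 44.5% passed (18.8% higher and 25.8% lower). The log2 effects were -1.83 ± 0.56 (SE) for miR-205-5p (limma, adjusted p 0.00417) and -1.08 ± 0.44 for miR-203-3p (adjusted p 0.0321). The effect of miR-205-5p averages over log2 ratios of -0.27 on HFD and -3.38 on LFD. Without the trend over all miRNAs its SE was 0.94 in place of 0.56, and without the filter on low values it was 1.17. Its adjusted p thus rests largely on an error borrowed from other miRNAs. It does not account for the difference of 3.11 between the diet ratios of miR-205-5p in the 2 depots. The effect of miR-375-3p was 5.77 ± 1.25, but it passed the filter on low values only through HFD vWAT-Exos, the library where it was high, so its p is not given as support. The effects of miR-31-5p (0.36, adjusted p 0.707) and miR-31-3p (-0.33, adjusted p 0.877) did not pass. These calls are fragile, since 0 of the 5 passed without the filter on low values, with a floor of 100 or without the intensity trend in the variance. With libraries scaled to the same sum neither miR-205-5p nor miR-203-3p passed. With median-of-ratios scaling miR-205-5p did not pass (limma adjusted p 0.0516). Over the alternatives the adjusted p ran from 0.0117 to 0.462 for miR-205-5p and from 0.0467 to 0.945 for miR-203-3p.

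For diet, limma passed none of the 5 miRNAs and none of the 512 (0% in either direction), with 45 of the 512 at an unadjusted p under 0.05. Those 45 include miR-205-5p (log2 effect -1.20, limma adjusted p 0.463). The effects of miR-31-3p (-3.73) and miR-375-3p (2.58) did not pass after adjustment either. They passed the filter on low values only through LFD BAT-Exos and HFD vWAT-Exos, the libraries where they were high. Their p are thus not given as support. The diet effects of miR-31-5p (-1.08, adjusted p 0.773) and miR-203-3p (0.47, adjusted p 0.857) had larger p. No other tool was run for diet. With libraries scaled to the same sum, limma passed 1 of 528 miRNAs for diet, lower on HFD, and none of the 5. For miR-205-5p and miR-375-3p this diet effect averages over 2 depots whose ratios differed, as given above.

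Strands of the same hairpins were compared next, since a guide and its opposite strand come from 1 precursor. For miR-31, the ratio of 5p to 3p was 12.4 in LFD vWAT-Exos and 8.95 in LFD BAT-Exos. Had the HFD libraries kept the ratio of the LFD library of their depot, 2.90 reads of miR-31-3p would go with the 36 reads of miR-31-5p in HFD vWAT-Exos and 6.82 reads with the 61 in HFD BAT-Exos. Both numbers are near or under the 5 reads below which values were seldom listed, so the zeros of miR-31-3p on HFD do not show a difference from miR-31-5p at this depth. miR-205-3p followed miR-205-5p in being highest in LFD BAT-Exos, at 9.90 (12 reads), and was listed at 0 in HFD vWAT-Exos, LFD vWAT-Exos and HFD BAT-Exos. At the ratio of that library, 0.512, 0.696 and 2.08 reads would go with miR-205-5p in those 3. miR-203-5p was listed at 0 in both vWAT-Exos libraries and was at 20.5 in HFD BAT-Exos and 21.5 in LFD BAT-Exos, where miR-203-3p was 257-fold and 152-fold more abundant.

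A miRNA from the strand opposite the Mir203 hairpin had larger ratios than miR-203-3p. miR-203b-3p is the reverse complement of the 5p side of Mir203 (chr12:112130887-112130908 on the minus strand, 20 bases shared with the complement of miR-203-5p), and it has a seed of its own, shown in capitals.
miR-203b-3p: tTGAACTGtcaagaaccactgg
Its norm value was 85.3 in HFD vWAT-Exos, 68.1 in LFD vWAT-Exos, 1613 in HFD BAT-Exos and 522 in LFD BAT-Exos (36, 50, 2286 and 633 reads). Both BAT-Exos libraries were high and both vWAT-Exos libraries low. It was 3.09-fold higher on HFD than on LFD in BAT-Exos (2.83 to 3.38), past the 2-fold that miR-203-3p did not reach, and 1.25-fold higher in vWAT-Exos (0.79 to 2.0). In vWAT-Exos it was 18.9-fold lower than in BAT-Exos on HFD (13.6 to 27.1) and 7.67-fold lower on LFD (5.75 to 10.5). As a share of miR-203-3p it was 4.00% in HFD vWAT-Exos and 3.81% in LFD vWAT-Exos, against 30.7% in HFD BAT-Exos and 16.0% in LFD BAT-Exos. The depot effect in limma was -3.57 on the log2 scale (adjusted p 1.35e-07), from the same model with 1 residual degree of freedom. The limma adjusted p was 0.032 without the variance trend and 0.00135 with a floor of 100. The effect was -2.53 (adjusted p 0.000157) with libraries scaled to the same sum, and it was not past the threshold without a filter (adjusted p 0.172). Small RNA reads keep their strand, so the 2 transcripts can be told apart by sequence. Neither miR-203b-5p nor miR-375-5p was among the 697 sequences with a mouse name, so these strands could not be compared.

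**Figure D4:**
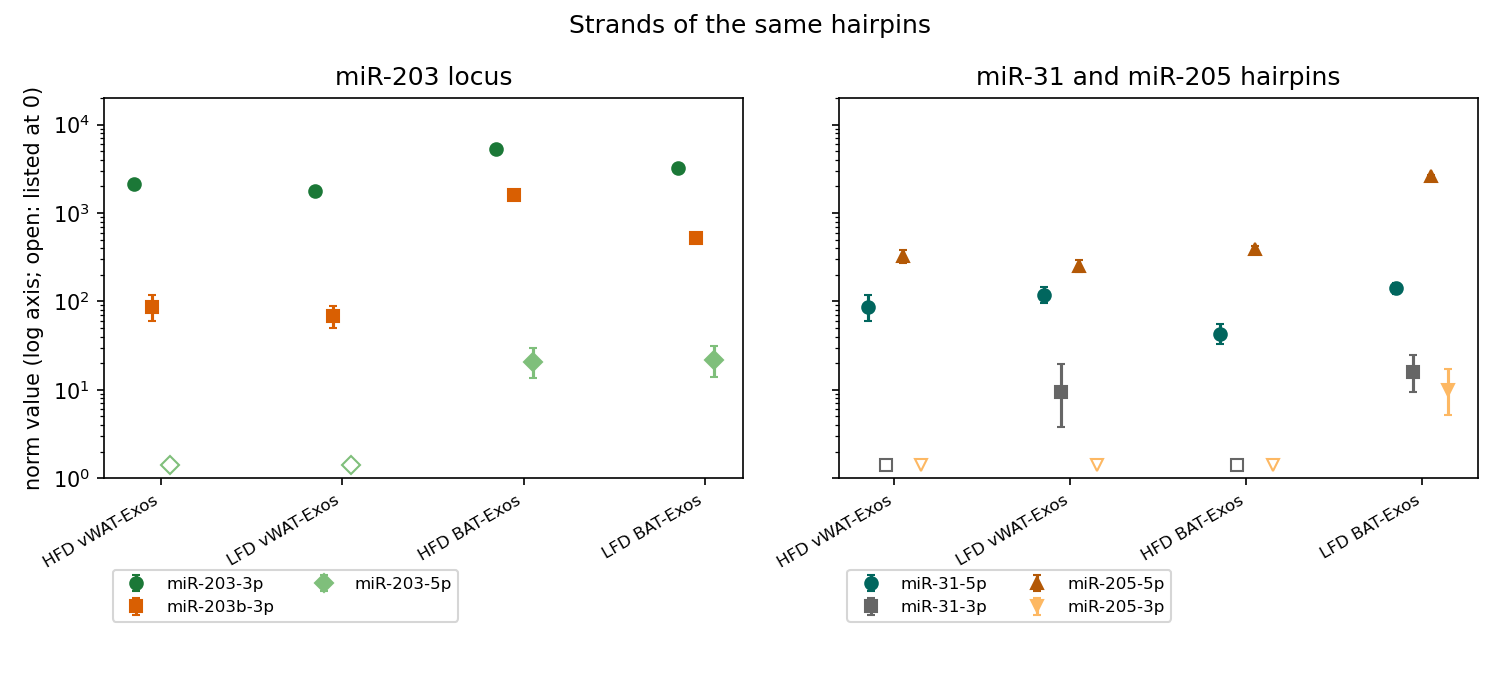
Norm value (log axis) of both strands of the miR-203 locus with the antisense miR-203b-3p (left) and of the miR-31 and miR-205 hairpins (right) in the 4 libraries, with bars for the 95% counting interval and open symbols for values listed at 0. miR-203b-3p reaches 1613 in HFD BAT-Exos and 522 in LFD BAT-Exos, against 85.3 and 68.1 in vWAT-Exos.

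The miRNAs whose pattern over the 4 libraries came nearest to each of the 5 were sought among 319 or 320 mouse miRNAs at the floor, by the distance of centred log2 values, where 0 means the same pattern. miR-203-3p had close neighbours, miR-126a-5p (distance 0.16, 3514, 3424, 8949 and 5641 in HFD vWAT-Exos, LFD vWAT-Exos, HFD BAT-Exos and LFD BAT-Exos), miR-326-3p (0.24) and miR-32-5p (0.30). The nearest to miR-31-5p was miR-3473e at 0.29, ahead of miR-214-5p (0.69) and miR-15a-3p (0.70). miR-205-5p had none as close, with miR-122-5p at 1.2, miR-5119 at 1.58 and miR-320-3p at 1.69. miR-375-3p stood farther from every other miRNA, with miR-147-3p at 3.63, miR-20b-5p at 3.73 and miR-142a-5p at 3.74. For miR-31-3p the nearest was miR-31-5p at 2.76, followed by miR-690 (2.83) and mir-3535-p3 (3.0). No member was among the 3 neighbours of another, apart from miR-31-5p beside miR-31-3p, and with 4 libraries these distances are a description only.

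**Figure D5:**
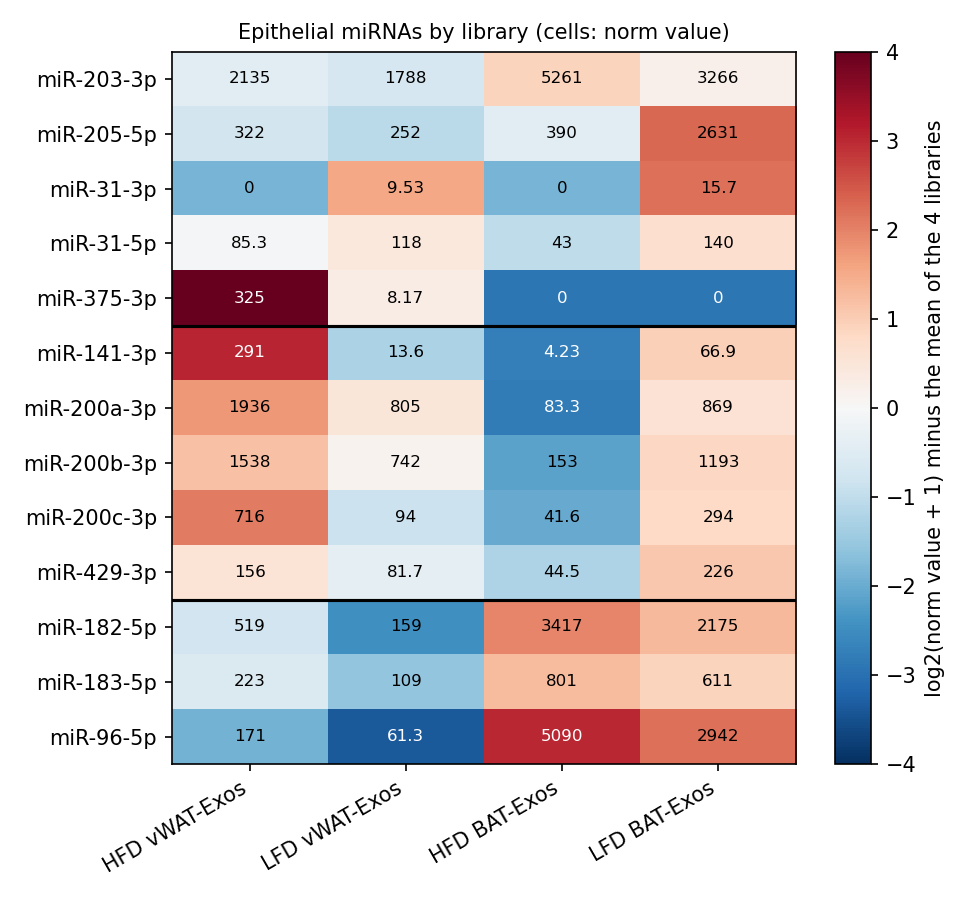
Norm value (number in each cell) and log2(norm value + 1) minus its mean over the 4 libraries (colour) for the 5 miRNAs, the miR-200 family and the miR-183 cluster. The miR-200 family is lowest in HFD BAT-Exos (4.23 to 153) and the miR-183 cluster is lowest in LFD vWAT-Exos (61.3 to 159), while the 5 miRNAs share no single order of libraries.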

How the data were processed

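Small RNA of AT-Exos was sequenced on an Illumina HiSeq, 1 library for each pairing of diet with depot. Per the labels, the authors passed the reads through ACGT101-miR, which took out adapter dimers, low-complexity reads, repeats and other RNA families. The submitters' notes name the human build GRCh38, although the samples are from mice. The deposited table holds normalized signal made by the authors, called the norm value, for 1640 entries (1482 sequences). The method of normalization is not given in the sources, nor is whether length variants were added to a miRNA, so ratios between libraries depend on an unknown scale. The 773 entries with a mouse name gave 697 sequences, each used once.

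The worth of 1 read was estimated from predicted entries found in 1 library alone, whose names end in what was taken for their read number, as the most frequent quotient of norm value and that number. For HFD vWAT-Exos, LFD vWAT-Exos, HFD BAT-Exos and LFD BAT-Exos it was shared by 3 of 3, 2 of 5, 100 of 112 and 127 of 146 entries, and is thus least secure for vWAT-Exos. Of the mouse values above 0, 83.5% to 86.9% were whole reads (tolerance 0.01 of a read), too few for a count test. Intervals are at 95%, exact for values (Poisson) and ratios (conditional binomial) and approximate for differences of log2 ratios, and reads without molecular identifiers are not independent molecules.

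A miRNA was counted as higher or lower at a ratio of 2 with at least 100 in either library, the fold and norm value of the study. Its p step was left out, since 1 library per group gives none. limma 3.58.1 (R 4.3.3, two-sided, eBayes with an intensity trend, Benjamini-Hochberg adjustment) was run on log2(norm value + 1) for sequences at 10 or more in any library. The calls were run on simulated data with counting noise only, and the fit on simulated additive depot effects with independent noise. These runs do not test the fit where depot and diet are not additive, nor the spread between replicates. Python 3.11.15, scipy 1.17.1, numpy 2.4.6, pandas 2.3.3 and matplotlib 3.10.9 served for the rest. Hairpins and coordinates come from RefSeq tables on GRCm38.p6, and the genes that overlap them from a GENCODE annotation.

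Named are the 5 miRNAs, other strands of their hairpins, entries that share a seed, the 3 nearest patterns of each, and members of 10 lists of other miRNAs. The 5 and the lists were chosen with earlier results of these data known. Alternatives changed the floor, the fold, the pseudocount, the scaling, the filter and the variance trend. Adding the opossum-named sequences of miR-203 was chosen after seeing the data.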

Additional observations from a re-analysis of the deposited data

Results flagged for a closer look

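The log2 ratio of HFD against LFD of miR-205-5p was 0.35 in vWAT-Exos and -2.75 in BAT-Exos, a difference of 3.11. It was picked out among the 5 because the only library pair of each depot moved in opposite directions, with norm values of 322 on HFD against 252 on LFD in vWAT-Exos and 390 on HFD against 2631 on LFD in BAT-Exos. Opposite directions were common. Of 320 miRNAs at the floor, 76 (23.8%) were higher on HFD in vWAT-Exos and lower in BAT-Exos, all 5 of the miR-200 family among them, and 155 (48.4%) had opposite directions of either kind. The difference was not tested, since each combination of diet and depot has 1 library. The interval of the vWAT-Exos ratio began at 1.02-fold, so its direction rests on a margin close to counting error. With libraries scaled to the same sum the log2 ratio in vWAT-Exos was 0.22 ± 0.32, which includes 0. The BAT-Exos ratio rests on the LFD BAT-Exos library, in which miR-205-5p was high. miR-31-3p, which never reached 100, and miR-375-3p, listed at 0 in BAT-Exos, gave no such pair of directions.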

How the results depend on the processing

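No paired analysis was possible because each combination of diet and depot has 1 library and the labels carry no replicate numbers, and for the same reason leaving out a library would leave the limma fit with no residual degrees of freedom. Of the counts of the 5 miRNAs at 2-fold, that of HFD against LFD in vWAT-Exos was 1, and it became 0 when both libraries had to reach 100 and 2 with no floor, where miR-31-3p was added. In BAT-Exos the count of 2 became 1 when both libraries had to reach 100. Between vWAT-Exos and BAT-Exos on HFD the count of 2 became 1 when both had to reach 100, and 1 at a fold of 3. Between vWAT-Exos and BAT-Exos on LFD the count of 1 became 2 with no floor and 2 at a fold of 1.5. With libraries scaled to the same sum, the count on HFD stayed at 2 with other members, miR-375-3p and miR-31-5p, both higher. The 3 depot calls of limma, miR-375-3p among them, became 0 without the filter, 0 with a floor of 100 and 0 without the variance trend. With libraries scaled to the same sum 1 was left, miR-375-3p, which was set aside above. miR-205-5p also lost its call with median-of-ratios scaling (limma adjusted p 0.0516). With the same sum limma split all depot calls into 174 higher and 60 lower in place of 96 and 132. Without the filter limma called 0 of 697 miRNAs, with 156 at an unadjusted p under 0.05. The diet difference between depots of miR-31-3p, which was 0.66 from values listed at 0, turned to -0.35 with libraries scaled to the same sum. The cause was not tested in these cases. The other counts stayed within 1.5 times, and the other diet differences between depots kept their direction, under the alternatives run for them. With libraries scaled to the same sum, 4 uncalled depot ratios turned, to log2 values of 0.73 for miR-205-5p on HFD and, on LFD, 0.22 for miR-203-3p, 0.84 for miR-31-5p and 0.35 for miR-31-3p. Depth limits miR-375-3p in LFD vWAT-Exos (6 reads) and miR-31-3p, which never had more than 19 reads.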

Other observations

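Further entries carried sequences of the miR-203 locus under other names. A predicted entry equal to miR-203b-3p with 1 more base at its 3′ end was listed at 0 in HFD vWAT-Exos, at 17.7 in LFD vWAT-Exos, at 442 in HFD BAT-Exos and at 151 in LFD BAT-Exos. Added to miR-203b-3p it gave 85.3, 85.8, 2055 and 674 in the same order, so that both BAT-Exos libraries stayed above both vWAT-Exos libraries. An entry named after opossum miR-203, with the seed of miR-203-3p, was at 11.8, 0, 32.5 and 20.6, and another, which starts 1 base later, was at 0, 6.81, 20.5 and 21.5. Both were small beside miR-203-3p, and adding them changed none of the 4 counts at 2-fold.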
